A study of Mus musculus with 9 samples.

Results

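Milk protein and milk fat globule genes were followed in 9 arrays of adipose stromal cells (ASCs) from the mouse mammary gland. The list held 10 genes, namely the caseins Csn1s1, Csn2 and Csn3, the whey genes Wap and Lalba, the secreted mucin gene Glycam1, the alveolar transcription factor gene Elf5, and the milk fat globule genes Btn1a1, Mfge8 and Xdh. The genes were chosen for their place in milk production, by a rule that uses no array values though earlier results of these data were known, and each was read from the probe sets that carry only its symbol. By this rule 9 of the 10 genes were measured, each by 1 probe set, among 19930 genes on the array. The only probe set of Lalba also carries the symbol of Trip12, so that no value is given for Lalba.

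The arrays were Affymetrix Mouse Gene 1.0 ST arrays, on which a gene is read by probes over the length of its transcript, and 3 arrays were run for each of 3 stages. All mice were female Balb/c mice, for which the labels name no transgene or drug. The nulliparous mice (ASC-N) were aged 8 weeks and never housed with males. The other mice were on day 5 of lactation (ASC-L) or on day 3 of involution (ASC-I). Per the paper, these were mated at 8 weeks of age, and involution was started by taking the pups away. They were thus older than the ASC-N mice, so that stage and age cannot be told apart. Per the labels, adipose stroma was separated from digested glands by centrifugation and RNA was taken with Trizol, whereas the paper describes low passage cultures and an RNeasy kit. The labels call the arrays of a stage biological replicates, and neither source states which mice stand behind each array, so each p-value reflects only how far these preparations varied. The deposited values are normalized log2 signals, a difference of 1 being a doubling of signal, and signals of different genes are not compared because probe sets differ in brightness. Fewer cells of a type and less RNA per cell cannot be told apart in such bulk preparations.

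Milk is made by the luminal cells of the alveoli, which differentiate in pregnancy and secrete through lactation. Prolactin acts through its receptor and the transcription factor Stat5 to switch on casein and whey genes, with Elf5 acting beside it. Fat leaves the cell as droplets wrapped in plasma membrane, a step that needs butyrophilin (Btn1a1) and xanthine oxidoreductase (Xdh). When suckling stops, the alveoli regress and milk genes are shut off. Casein genes are therefore markers of secretory epithelium, a cell type that a stromal preparation would not be meant to hold, whereas Mfge8 and Xdh are also made by other cells.

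The arrays were checked against markers before the milk genes were read. The mean log2 signal of 13 stromal cell markers, among them collagens, lay between 11.02 and 11.86 in the 9 arrays, and that of 9 adipocyte markers between 5.45 and 5.61. The replicate 2 arrays of lactation and involution, ASC-L2 and ASC-I2, stood apart. On the first principal component, which held 45.4% of the variance, they lay at 58.3 and 31.5, and the next array lay at 13.6. The mean of 23 luminal epithelium markers was 8.62 in ASC-L2 and 7.27 in ASC-I2 and lay between 5.67 and 6.72 in the other 7 arrays. The mean of 14 basal epithelium markers was 7.88 and 6.57 in the same arrays and between 5.17 and 5.70 elsewhere. The stromal means of ASC-L2 and ASC-I2, 11.02 and 11.36, were the lowest of the 9 arrays. Stage comparisons are therefore given with all arrays and, for the genes and lists where this is stated, also without both arrays.

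Upstream sequence of 7 of the 10 genes was found in the RefSeq promoter table (mouse build GRCm38.p6), and the 250 bases before each start site were searched for TTCNNNGAA, the letters of a Stat5-type element, which reads the same on both strands. It was found in 3 of the 7 genes, Csn1s1, Csn2 and Glycam1, and in 7.02% of all 32851 promoter windows of that length. The windows searched of Elf5, Mfge8, Wap and Lalba did not hold these letters, and Csn3, Btn1a1 and Xdh had no entry. The 3 windows are shown because they belong to the genes of this list with a match, with the match in capitals, each read 5′ to 3′ on the strand of its gene. They lie at chr5:87665958-87666207 on the plus strand for Csn1s1, at chr5:87699426-87699675 on the minus strand for Csn2 and at chr15:103565082-103565331 on the minus strand for Glycam1.
Csn1s1: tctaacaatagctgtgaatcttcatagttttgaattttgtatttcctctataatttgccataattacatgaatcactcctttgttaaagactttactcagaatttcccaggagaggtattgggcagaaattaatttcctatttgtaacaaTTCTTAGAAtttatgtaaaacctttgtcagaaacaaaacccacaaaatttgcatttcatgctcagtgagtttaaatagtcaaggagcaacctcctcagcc
Csn2: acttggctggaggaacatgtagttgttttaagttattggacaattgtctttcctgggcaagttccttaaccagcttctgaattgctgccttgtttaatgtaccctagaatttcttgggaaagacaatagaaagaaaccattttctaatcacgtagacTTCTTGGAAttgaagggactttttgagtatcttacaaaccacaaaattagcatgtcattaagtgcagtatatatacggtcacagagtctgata
Glycam1: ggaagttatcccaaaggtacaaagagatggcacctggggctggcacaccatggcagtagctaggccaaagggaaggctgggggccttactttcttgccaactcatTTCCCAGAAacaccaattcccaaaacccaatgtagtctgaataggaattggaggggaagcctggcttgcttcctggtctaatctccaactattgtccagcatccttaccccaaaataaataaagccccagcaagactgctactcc
The matches begin 100 bases before the start site in Csn1s1, 93 in Csn2 and 145 in Glycam1. A match of letters is a description and not a binding site.

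Csn1s1, which encodes αs1-casein, had the largest spread of the caseins in ASC-Ls. Its log2 signal was 3.70, 3.78 and 3.78 in the ASC-N arrays, 3.89, 7.51 and 5.29 in the ASC-L arrays, and 3.85, 5.69 and 3.80 in the ASC-I arrays, in the order of replicates 1 to 3. The ASC-N arrays were nearly equal (3.75 ± 0.05, SD, n = 3), every ASC-L and ASC-I array lay above them, and the ASC-L mean of 5.56 ± 1.83 (SD, n = 3) rested on ASC-L2 and, to a lesser extent, ASC-L3. Of all genes, 99.5% had a smaller SD in the ASC-L arrays.

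Csn2, the gene of β-casein, lay between 4.09 and 4.56 in all arrays but ASC-L2 and ASC-I2. The values were 4.09, 4.16 and 4.35 in ASC-Ns, 4.18, 6.62 and 4.30 in ASC-Ls, and 4.56, 5.46 and 4.21 in ASC-Is. ASC-L1 and ASC-L3 lay within the range of the nulliparous arrays, so that the stages overlapped.

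Csn3 encodes κ-casein, which covers the surface of the casein micelle. Its signal was 5.16, 4.98 and 3.70 in ASC-Ns, 3.86, 6.89 and 4.24 in ASC-Ls, and 3.48, 5.99 and 4.02 in ASC-Is. Unlike Csn1s1 and Csn2, Csn3 was uneven among the nulliparous arrays (4.61 ± 0.80, SD, n = 3), where ASC-N1 and ASC-N2 lay above ASC-N3 and above 4 of the 6 arrays of other stages.

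Wap encodes whey acidic protein, the main whey protein of mouse milk. It measured 5.40, 5.30 and 5.13 in ASC-Ns, 5.78, 6.90 and 5.57 in ASC-Ls, and 5.49, 6.25 and 5.53 in ASC-Is. All 6 arrays of lactation and involution lay above all nulliparous arrays, and the lowest of them, ASC-I1 at 5.49, was close to the highest nulliparous array, ASC-N1 at 5.40.

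Glycam1, a mucin-like glycoprotein of milk that also occurs on lymph node endothelium, had signals of 4.60, 4.64 and 4.73 in ASC-Ns, 4.94, 5.62 and 4.68 in ASC-Ls, and 4.74, 4.99 and 4.75 in ASC-Is. ASC-L3 fell within the nulliparous range, while ASC-L1 and ASC-L2 lay above it. Elf5, needed for alveolar development, was 4.69, 4.87 and 4.69 in ASC-Ns, 4.43, 5.25 and 4.67 in ASC-Ls, and 4.67, 4.99 and 4.30 in ASC-Is. Its highest and lowest arrays belonged to lactation and involution, on either side of the nulliparous values.

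The 3 milk fat globule genes had different patterns. Btn1a1 measured 4.79, 4.78 and 4.68 in ASC-Ns, 5.19, 5.73 and 4.61 in ASC-Ls, and 5.23, 5.38 and 4.80 in ASC-Is. ASC-L1 and ASC-I1 were close to ASC-I2 for this gene, and ASC-L3 was the lowest of the 9 arrays. Mfge8, whose product lactadherin tags dying cells for uptake, was 10.94, 10.93 and 10.89 in ASC-Ns, 10.77, 10.76 and 10.82 in ASC-Ls, and 10.83, 10.95 and 10.94 in ASC-Is. It was the steadiest of the 9 genes, with a range of 0.19 over all arrays, and its SD in ASC-Ls was larger than that of only 2.11% of genes.

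Xdh ran the other way from the caseins. Its signal was 8.72, 8.89 and 9.80 in ASC-Ns, 9.05, 6.75 and 10.07 in ASC-Ls, and 9.17, 8.01 and 9.82 in ASC-Is. ASC-L2 and ASC-I2 were the lowest and second lowest of the 9 arrays, and the replicate 3 array was the highest of each stage. Xdh encodes an enzyme of purine breakdown that many cell types make.

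**Figure D1:**
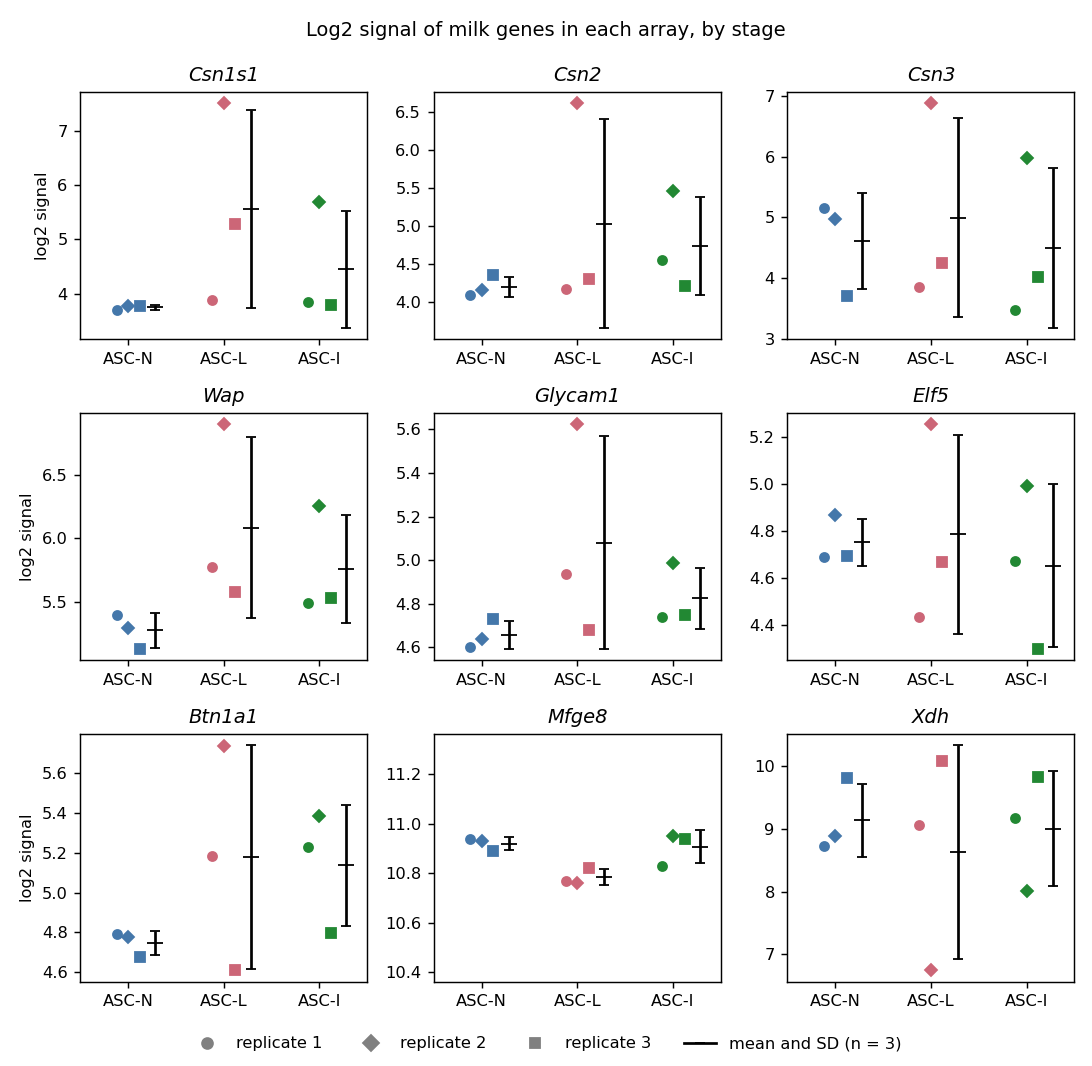
Log2 signal (vertical axis, with its own scale in each panel) of the 9 measured genes in the 3 stages; points are single arrays, symbols mark the replicate number, and bars are the mean and SD of 3 arrays. The diamonds of ASC-L2 and ASC-I2 lie on top for 7 genes and at the bottom for Xdh (6.75 and 8.01), and Mfge8 stays between 10.76 and 10.95.

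The lactation stage was then compared with the nulliparous stage, which asks how ASCs change when the gland makes milk. In a limma fit of all 19930 genes, Wap was the 1 of 9 genes that rose, by the limits that the study's tables of changed genes meet, an unadjusted p under 0.05 and at least 1.5-fold. Over all genes these limits called 0.627% in either direction and 0.171% as higher. Wap rose by 0.81 on the log2 scale (SE 0.34, 95% interval 0.043 to 1.57), or 1.75-fold, with an unadjusted limma p of 0.0407 and an adjusted limma p of 0.998. At an adjusted p under 0.05 limma called 0 of all genes, against 726 genes, or 3.64%, and 1 of the 9 milk genes at an unadjusted p under 0.05. Wap lost its call without ASC-L2, where the difference was 0.40 with an unadjusted limma p of 0.122 and an adjusted limma p of 0.927, and in the fits listed in the closing section.

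The other 8 genes did not pass in the fit without a replicate block. Csn1s1 had the largest difference, 1.81 on the log2 scale or 3.51-fold, with an SE of 0.83 and an interval of -0.062 to 3.68 that reaches 0, with an unadjusted limma p of 0.0565 and an adjusted limma p of 0.998. Without ASC-L2 and ASC-I2 its difference was 0.83 with an unadjusted limma p of 0.0466 and an adjusted limma p of 0.878, which passes the limits and rests on ASC-L3. It also passed with the replicate number as a block (1.81, with an unadjusted limma p of 0.012 and an adjusted limma p of 0.754) and without ASC-L1 (2.65). Csn2 differed by 0.83 (SE 0.60) and Csn3 by 0.39 (SE 0.88), and without both arrays these differences were 0.039 and -0.56. Glycam1 and Btn1a1 differed by 0.42 (SE 0.22) and 0.43 (SE 0.26), and Elf5 by 0.034 (SE 0.23). Mfge8 differed by -0.14 (SE 0.094) and Xdh by -0.51 (SE 0.79), the latter becoming 0.43 without both arrays. The median over the 9 genes was 0.42, against 0.0067 over all genes, and 0.15 without both arrays. The arrays of the stages did not overlap, with ASC-Ls higher, for Csn1s1 and Wap, 2 of 9 genes against 4.89% of all genes, and with ASC-Ls lower for Mfge8, 1 of 9 against 3.70%.

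Lactation against involution asks whether milk genes fall when suckling has stopped, and 0 of 9 genes passed at the same limits, against 0.482% of all genes. At an unadjusted p under 0.05 alone the limma count was also 0 of 9, against 1.80% of all genes (359 genes), the smallest unadjusted limma p being that of Csn1s1, 0.21, with an adjusted limma p of 1. Csn1s1 was 1.11 higher in ASC-Ls (SE 0.83), Csn3 0.50 (SE 0.88), Wap 0.32 (SE 0.34) and Csn2 0.29 (SE 0.60). The interval for Csn1s1 ran from -0.76 to 2.99, so that neither no difference nor a large fall is outside it. The difference of Csn1s1 was 0.14 without ASC-L2 and 0.76 without ASC-L2 and ASC-I2, and without both arrays those of Csn3, Wap and Csn2 were 0.30, 0.16 and -0.14. Glycam1 differed by 0.26, Elf5 by 0.13, Btn1a1 by 0.040, Mfge8 by -0.12 and Xdh by -0.38. The median was 0.26, against 0.0078 over all genes, and 0.066 without ASC-L2 and ASC-I2. Mfge8 was the 1 gene whose arrays did not overlap, being lower in ASC-Ls, as were 2.60% of all genes, and for 0 of 9 genes did all ASC-L arrays lie above all ASC-I arrays, against 2.96% of all genes.

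For involution against the nulliparous stage, 0 of 9 genes passed the limits, against 0.251% of all genes, and 0 of 9 passed an unadjusted limma p under 0.05, which 1.56% of all genes (311 genes) did. Csn1s1 was 0.69 higher in ASC-Is (SE 0.83), Csn2 0.54 (SE 0.60), Wap 0.48 (SE 0.34), Btn1a1 0.39 (SE 0.26) and Glycam1 0.17 (SE 0.22). Csn3 was at -0.12, Elf5 at -0.098, Mfge8 at -0.013 and Xdh at -0.13. Without ASC-I2 the difference was 0.072 for Csn1s1, 0.18 for Csn2, 0.24 for Wap, 0.26 for Btn1a1 and -0.86 for Csn3. All ASC-I arrays lay above all ASC-N arrays for 4 of 9 genes, Csn1s1, Wap, Glycam1 and Btn1a1, against 3.89% of all genes. They lay below them for 0 of 9, against 2.65%. The margins were narrow. The lowest ASC-I and highest ASC-N arrays were at 3.800 and 3.785 for Csn1s1 and at 4.739 and 4.729 for Glycam1. For Btn1a1 they were at 4.797 and 4.790, and for Wap at 5.49 and 5.40. The median difference of the list was 0.17, against 0.0031 over all genes, or 0.087 without both arrays. The 3 comparisons share their arrays, so that they are not independent of each other.

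**Figure D2:**
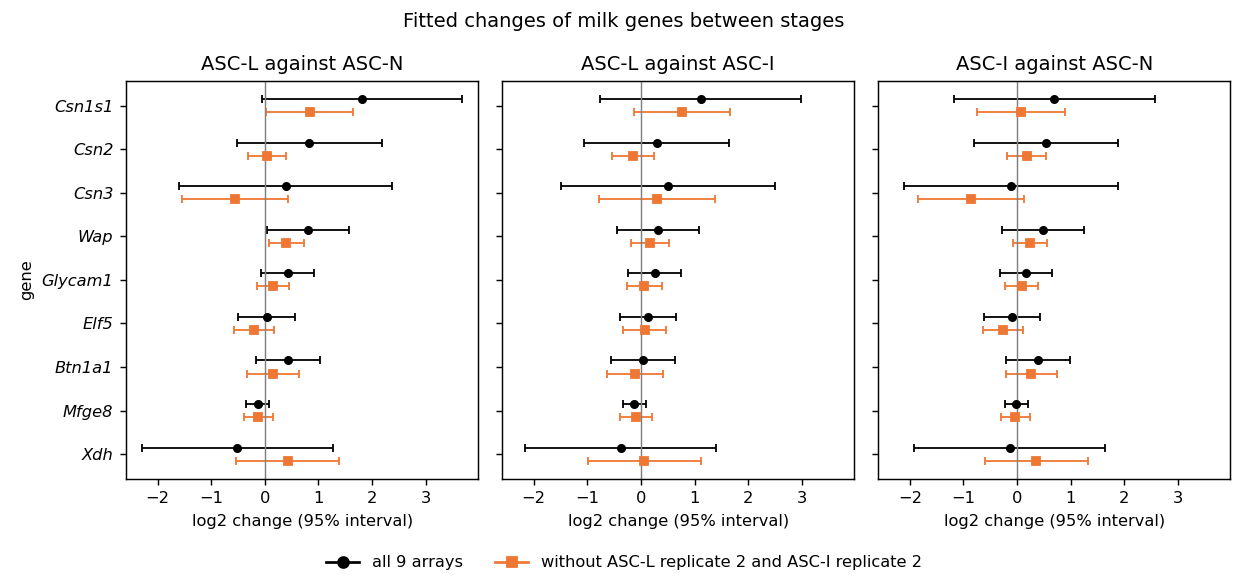
Fitted log2 change between stages (horizontal axis) with its 95% limma interval for the 9 genes; black circles use all 9 arrays and orange squares leave out ASC-L2 and ASC-I2. With all arrays Wap in ASC-L against ASC-N (0.81) is the only interval that does not cross 0, and most orange squares lie nearer to 0.

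For 8 of the 9 genes, all but Mfge8, the ASC-L arrays spanned more than any difference between the stage means of that gene. The share over all genes was not counted, and single arrays vary more than means of 3. The count is thus not read as a trait of the milk genes. For 7 of the 9 genes, all but Mfge8 and Xdh, ASC-L2 was the highest of the 9 arrays and ASC-I2 the second, an order found in 6.50% of all genes. Each array was set against the mean of the other 2 arrays of its stage, as a description with no test, since it is 1 array. In ASC-L2, Csn1s1 was 2.93 higher on the log2 scale (7.59-fold), Csn3 2.84 (7.16-fold), Csn2 2.38 (5.20-fold) and Wap 1.22 (2.33-fold). These 4 of 9 genes were at least 2-fold higher, as were 3.50% of all genes. Glycam1, Btn1a1 and Elf5 were 0.81, 0.84 and 0.70 higher and Mfge8 was at -0.034. Xdh was 7.02-fold lower, a difference of -2.81, and 0.156% of genes had a lower value.

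The caseins also led in ASC-I2, with smaller differences. Csn3 was 2.24 higher than the mean of ASC-I1 and ASC-I3 (4.73-fold), Csn1s1 1.87 (3.65-fold) and Csn2 1.07 (2.11-fold), 3 of 9 genes at least 2-fold higher, against 2.09% of all genes. Wap was 0.74 higher, Elf5 0.51, Btn1a1 0.37 and Glycam1 0.24, and Mfge8 was at 0.066. Xdh was 2.80-fold lower, at -1.49. In the 3 nulliparous arrays the same measure reached 2-fold for 1 gene, Csn3, which was lower in ASC-N3, as were 2.73% of all genes.

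The caseins lie together on chromosome 5, where 11 annotated genes run from Csn1s1 to Csn3 and 9 were measured. These neighbours were picked with their values already known. The remaining caseins, Csn1s2a and Csn1s2b, were 2.48 and 1.40 higher in ASC-L2 than in the other ASC-L arrays, and 0.87 and 0.72 higher in ASC-I2 than in the other ASC-I arrays. The 4 genes in the interval that are no caseins differed less. In ASC-L2 they were at 0.33 (Prr27), -0.30 (Gm7337), 0.013 (Odam) and 0.22 (BC037156), and in ASC-I2 at -0.17, 0.23, 0.12 and -0.14. All 5 caseins were thus higher in both arrays, and the genes between Csn1s2b and Csn3 lay on either side of 0.

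**Figure D3:**
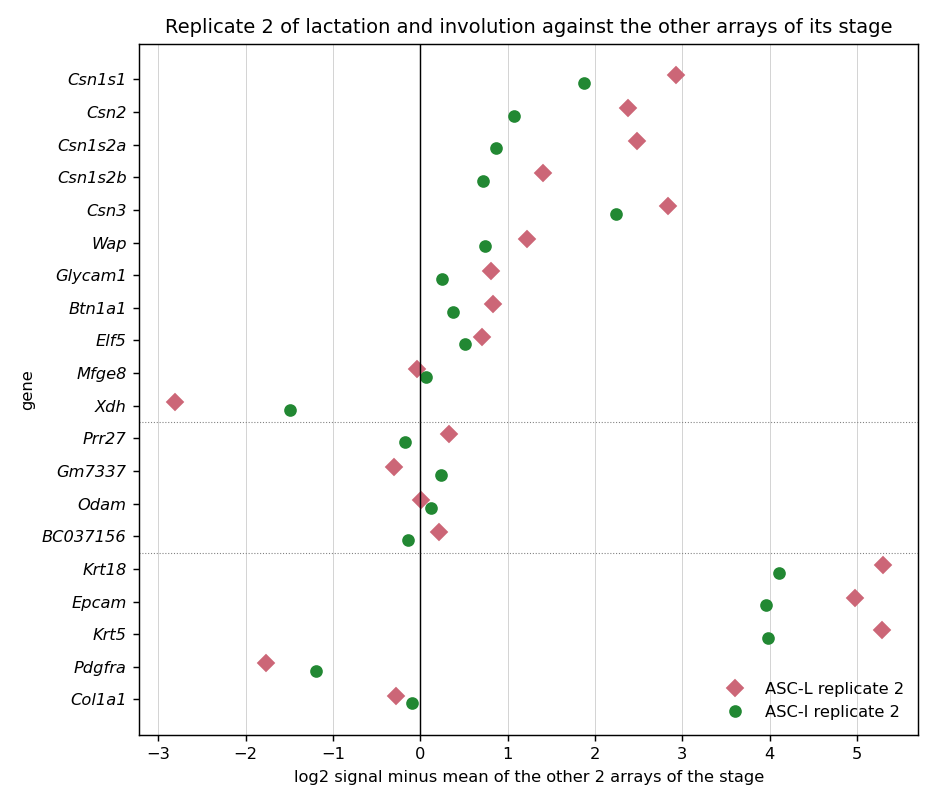
Log2 signal of ASC-L2 (diamonds) and ASC-I2 (circles) minus the mean of the other 2 arrays of the same stage, for milk genes (top), genes between the caseins that are no caseins (middle) and cell type markers (bottom). Caseins lie between 0.72 and 2.93, the genes between them near 0, Krt18, Epcam and Krt5 beyond the milk genes plotted, and Xdh and Pdgfra below 0.

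Several epithelial markers were high in the same arrays as the caseins, and others were not. Krt19, a luminal marker, was 9.69, 9.72 and 7.22 in ASC-Ls and 9.77, 9.56 and 8.38 in ASC-Is. The luminal marker Ovol2 and the basal markers Krt15 and Oxtr were not highest in ASC-L2 among the ASC-L arrays. The markers of either kind were not counted. Krt18, a keratin of luminal cells, was 5.30 higher in ASC-L2 and 4.10 higher in ASC-I2 than in the other arrays of the stage, and Epcam, an adhesion molecule of epithelium, 4.98 and 3.96. Krt5, a keratin of basal cells, was 5.28 and 3.98 higher. Pdgfra, a receptor of fibroblasts and adipocyte precursors, was at -1.77 and -1.20 in these arrays, and Col1a1, a fibrillar collagen, at -0.28 and -0.094. The mean of 8 endothelium markers was 7.28 in ASC-L2, 6.69 in ASC-I2 and 7.002 in ASC-N1, and lay between 5.01 and 5.55 elsewhere. The mean of 16 macrophage markers ran from 6.10 in ASC-N3 to 8.97 in ASC-I1 and was 6.70 in ASC-L2 and 7.30 in ASC-I2. The part of these cells in the milk gene values was not tested.

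Within the nulliparous arrays the mean of the 3 caseins (4.32, 4.30 and 3.94) kept the order of the luminal mean (6.72, 6.64 and 5.67). Against ASC-L3, single caseins did not all keep that order. ASC-N1 and ASC-N2 had luminal means of 6.72 and 6.64, above the 6.06 of ASC-L3, and Krt18 at 8.31 and 8.24, above its 6.68 in ASC-L3. Csn1s1 was 3.70 and 3.78 in these nulliparous arrays and 5.29 in ASC-L3. Csn2 was likewise 4.09 and 4.16 against 4.30, whereas Csn3 was 5.16 and 4.98 against 4.24. In ASC-N1 and ASC-N2, Csn3 was the 1 casein of the list above its level in ASC-N3, while Csn1s1 and Csn2 were not above theirs. In ASC-L against ASC-N, 23 of 23 luminal markers had a higher mean in ASC-Ls and 2 of them rose by the limits above, Elf3 by 0.61 and F11r by 0.89 on the log2 scale. For most markers that direction rested on ASC-L2, since without ASC-L2 and ASC-I2 only 5 of 23 were higher in ASC-Ls, with a median of -0.30, and 0 passed. Elf3 and F11r were among these 5, at 0.51 and 0.50, under 1.5-fold. Their unadjusted limma p was 0.0106 and 0.0873, and their adjusted limma p was 0.878. Of 13 stromal markers 5 were higher and 8 lower in ASC-Ls, with a median of -0.053, and 1 fell, Pdgfra by 1.22 (adjusted limma p of 0.998), or by 0.63 without both arrays. Of 9 adipocyte markers 1 rose, Slc2a4, the insulin-regulated glucose transporter gene, by 0.65 or by 0.59 without both arrays.

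Macrophage markers had lower means in ASC-Ls. In ASC-L against ASC-N, 16 of 16 were lower in ASC-Ls, with a median of -0.87, and 1 fell, Csf1r, the receptor of a macrophage growth factor, by 1.07. Without ASC-L2 and ASC-I2 the median was -0.90, and Adgre1 fell in place of Csf1r. The nulliparous arrays were split, the mean of the 16 markers being 8.24 in ASC-N1, 8.196 in ASC-N2 and 6.10 in ASC-N3. ASC-N3 lay below the ASC-L arrays, at 6.81, 6.70 and 6.52. The lower marker mean of ASC-Ls thus rested on ASC-N1 and ASC-N2, which both fits keep. Adgre1 was lower in every ASC-L array than in every ASC-N array. In ASC-L against ASC-I, 16 of 16 were lower, with a median of -1.38 or of -1.68 without both arrays, and 8 fell in either fit. The largest of these changes were those of the oxidase subunit gene Cybb, which fell by 1.81, the lysozyme gene Lyz2, by 1.74, the F4/80 antigen gene Adgre1, by 1.57, and the integrin gene Itgam, by 1.53. Over all genes the limits called 0.482% in this comparison, or 194 of 19930 genes without both arrays. At an adjusted p under 0.05 limma called 0 genes in either fit, so these falls rest on unadjusted p-values. The part of macrophages in the milk gene values was not tested.

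**Figure D4:**
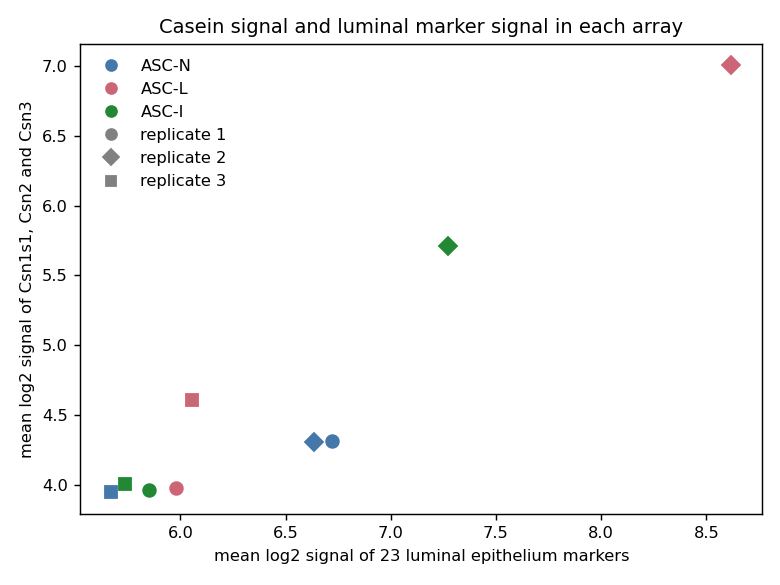
Mean log2 signal of Csn1s1, Csn2 and Csn3 (vertical axis) against the mean of 23 luminal epithelium markers (horizontal axis), 1 point per array, coloured by stage with symbols for the replicate number. ASC-L2 (8.62, 7.01) and ASC-I2 (7.27, 5.71) lie apart, and ASC-N1 and ASC-N2 lie to the right of ASC-L3 but below it.

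Other genes of milk production were read from lists of known roles, chosen with earlier results of these data known. The genes named from them had the largest changes in ASC-L against ASC-N, except Stat5a, Cish, Jak2, Nr3c1, Socs2 and genes named for another stated reason. Of 11 measured genes of other secreted milk proteins, 0 passed the limits in any of the 3 comparisons. In ASC-L against ASC-N, 10 of the 11 had a higher mean in ASC-Ls, with a median of 0.67, and without ASC-L2 and ASC-I2 this was 7 of 11 with a median of 0.21. Ltf, the iron-binding lactoferrin, was 4.63, 4.45 and 4.71 in ASC-Ns, 4.66, 7.23 and 5.11 in ASC-Ls, and 4.76, 5.50 and 4.54 in ASC-Is. Csn1s2a was 3.59, 3.63 and 3.82 in ASC-Ns, 3.92, 6.38 and 3.88 in ASC-Ls, and 3.80, 4.70 and 3.87 in ASC-Is. Both had ASC-L2 first and ASC-I2 second, and their stage differences of 1.07 (SE 0.58) and 1.05 (SE 0.60) did not pass. Without both arrays these differences were 0.29 and 0.22.

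The remaining lists held genes of milk fat, lactose and lipids. Of 9 other milk fat globule and lipid droplet genes 0 passed in any comparison, and the median of ASC-L against ASC-N was -0.075, or 0.016 without ASC-L2 and ASC-I2. By array the mean of these 9 genes was again highest in ASC-L2 (7.46) and next in ASC-I2 (7.27), and lay between 6.19 and 6.90 elsewhere. Plin2, which coats lipid droplets, had signals of 9.78, 9.96 and 10.09 in ASC-Ns, 9.44, 11.32 and 10.62 in ASC-Ls, and 9.46, 11.40 and 9.92 in ASC-Is, with ASC-I2 slightly above ASC-L2. Nt5e, an enzyme of the cell surface, was 9.11 in ASC-L2 and 7.44 in ASC-I2, and differed by 1.004 (SE 0.70) between ASC-Ls and ASC-Ns, or by 0.17 without both arrays. The 8 genes of lactose synthesis and milk transport and the 12 of milk lipid synthesis also gave 0 calls. Their medians were 0.05 and -0.11, or 0.10 and -0.058 without both arrays. Among them, with all arrays, the chloride cotransporter gene Slc12a2 differed by 0.28 and the phosphate transporter gene Slc34a2 by 0.16. Lpl, which frees fatty acids from lipoproteins, differed by -0.62, and Gpam, an enzyme of triglyceride synthesis, by -0.31.

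The prolactin pathway and its regulators had 14 of 15 genes measured, and 0 passed in any comparison. The median of ASC-L against ASC-N was -0.09, or -0.13 without ASC-L2 and ASC-I2. With all arrays 6 genes had higher and 8 had lower means. Stat5a carries the prolactin signal and was named after its values were seen. It was 7.70, 7.91 and 7.67 in ASC-Ns, 7.53, 7.38 and 7.69 in ASC-Ls, and 7.56, 7.45 and 7.71 in ASC-Is. The list had no shared direction in ASC-L2 and ASC-I2. Stat5a, Jak2 and Nr3c1 were lowest in these arrays, whereas Ehf (6.87 and 5.46) and Socs2 (8.85 and 8.65) were highest in them. With all arrays, Id2, an inhibitor of helix-loop-helix factors, differed by -0.54 (SE 0.36) between ASC-Ls and ASC-Ns. Ehf, an epithelial factor of the Ets family, differed by 0.39 (SE 0.54). Cish, a Stat5 target that restrains cytokine signals, differed by 0.42 between ASC-Is and ASC-Ns, under 1.5-fold, with an unadjusted limma p of 0.022.

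The pattern shared by the list was described by the mean of its 9 genes, each centred on its own mean, over the 9 arrays. Against the mean of the other 8 genes, Pearson's r was highest for Csn1s1 (0.95), Csn2 (0.94) and Wap (0.92), lower for Glycam1 (0.88), Elf5 (0.78), Csn3 (0.74) and Btn1a1 (0.72), and below 0 for Mfge8 (-0.35) and Xdh (-0.90). Of 5873 other genes with an SD of at least 0.25 over the arrays, those most like the mean of the list were Tc2n (r = 0.99), Dusp16 (r = 0.99), Csn1s2b (r = 0.98), Rab15 (r = 0.98) and Col17a1 (r = 0.98). These values share the 9 arrays. Without ASC-L2 and ASC-I2, r was 0.76 for Tc2n, 0.91 for Dusp16, 0.82 for Csn1s2b, 0.86 for Rab15 and 0.77 for Col17a1 over 7 arrays. Tc2n was 3.86, 3.77 and 3.36 in ASC-Ns, 3.50, 6.54 and 4.08 in ASC-Ls, and 3.29, 5.09 and 3.39 in ASC-Is. Csn1s2b, a casein outside the list, lay at or under 4.05 in ASC-Ns, was 4.12, 5.70 and 4.49 in ASC-Ls and 4.25, 4.84 and 3.99 in ASC-Is, and had ASC-L3 next after ASC-I2 as Csn1s1 did.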

How the data were processed

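The log2 values were made and deposited by the authors, by robust multi-array average as the paper's methods state, whereas the submitters' processing notes name GCRMA and limma without a version. No further normalization was applied, array medians lay between 5.93 and 6.00, and background correction, detection calls, slide and scan date were not used here. Of 28348 probe sets, 21762 carried 1 gene symbol, 1621 several and 4965 none; the single-symbol sets were averaged per gene into 19930 genes.

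A mean per stage was fitted over all 9 arrays with limma 3.58.1 in R 4.3.3, with empirical Bayes moderation and Benjamini-Hochberg adjustment over all genes, and the script was tested on simulated data. Calls needed an unadjusted p under 0.05 and at least 1.5-fold, and the 3 arrays per stage limit the precision. Alternatives were quantile and cyclic loess normalization, an intensity trend with a robust prior, array weights, only the stages compared, filters on low signal or SD, fits per probe set, a replicate block, leaving out each array, and leaving out ASC-L2 and ASC-I2 together, which earlier results of these data had shown to stand apart. Counts of the other lists without both arrays were added after seeing the data.

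Members and lists were chosen with earlier results of these data known. The text names the members, from the other lists up to 4 genes that passed in a comparison or, where none did, up to 2 with the largest change, 5 genes by likeness, and defining markers. Stat5a, Cish, Jak2, Nr3c1, Socs2 and the casein neighbours were chosen after their values were seen. So were the epithelial markers Krt19, Ovol2, Krt15 and Oxtr. Replicate numbers are shared between stages, although no source names a pairing. Deviations from stage means correlated between arrays of one number for ASC-L and ASC-I (r = 0.47, 0.73 and 0.46), less so for ASC-L and ASC-N (r = -0.08, 0.40 and 0.45) and ASC-I and ASC-N (r = 0.07, 0.43 and 0.50).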

Additional observations from a re-analysis of the deposited data

How the results depend on the processing

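The number of arrays, and the spread of ASC-Ls, limit these results. For ASC-L against ASC-N the count of called genes was 0 of 9 with quantile normalization, cyclic loess and array weights, where Wap did not pass (0.77, 0.77 and 0.54 on the log2 scale), and 2 with the replicate block, where Csn1s1 passed as well (1.81, with an unadjusted limma p of 0.012 and an adjusted limma p of 0.754). The block changed no other count of called genes. Leaving out 1 array at a time gave 0 to 3 called genes in that comparison, 0 to 1 for ASC-L against ASC-I (1 without ASC-L1, Csn1s1 at 1.95) and 0 to 0 for ASC-I against ASC-N. In ASC-L against ASC-N the count was 0 without any one of ASC-N1, ASC-N2, ASC-N3, ASC-L2 and ASC-I3, 2 without ASC-L1 or ASC-I2, and 3 without ASC-L3. The medians ranged from 0.15 to 0.71, from -0.10 to 0.46 and from 0.087 to 0.34. Why the calls moved was not tested.

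Some differences changed sign, and the cause was not tested. In ASC-L against ASC-N, Elf5 was at -0.0073 (quantile), -0.018 (cyclic loess), -0.064 (array weights) and -0.20 (without ASC-L2 and ASC-I2). Csn3 was at -0.41 and -0.56 and Xdh at 0.21 and 0.43 with array weights and without both arrays. In ASC-L against ASC-I, Btn1a1 was at -0.065 and -0.12 under these, and without both arrays Csn2 was at -0.14 and Xdh at 0.065. In ASC-I against ASC-N, Xdh was at 0.27 and 0.36. Leaving out 1 array turned Csn3 (-0.56 to 0.96), Elf5 (-0.20 to 0.21) and Xdh (-1.23 to 0.43) in ASC-L against ASC-N. In ASC-L against ASC-I it turned Csn2 (-0.50 to 0.72), Csn3 (-0.44 to 1.25), Wap (-0.083 to 0.58), Glycam1 (-0.015 to 0.46), Elf5 (-0.10 to 0.31), Btn1a1 (-0.24 to 0.32) and Xdh (-1.10 to 0.56). In ASC-I against ASC-N it turned Csn3 (-0.86 to 0.39), Elf5 (-0.27 to 0.080), Mfge8 (-0.035 to 0.026) and Xdh (-0.55 to 0.36). The filter on low signal left out Csn1s1, Csn2, Csn3 and Elf5. Calls over all genes were 125, 96 and 50, against 295, 207 and 90 with the block and 311, 142 and 187 with array weights.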
